A study of Homo sapiens with 12 samples.

Results

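The G1 cyclins, their kinases, the inhibitor CDKN1B and the transcription factor E2F1 were followed across 4 groups of Caco-2 cells. This established line comes from a human colorectal adenocarcinoma and resembles intestinal epithelium when it is cultured. The genes were taken by name: CCND1, CCND2, CCND3, CCNE1, CCNE2, CDK2, CDK4, CDK6, CDKN1B and E2F1, which are 10 of 54553 gene entries measured by RNA sequencing of ribosome-depleted total RNA. The 4 groups had 3 libraries each. The depleted BafA1 group was kept for 48 h with 100 nM bafilomycin A1 in a DMEM-based medium with 0.1 g/L glucose, 0.2 mM glutamine and 1% serum, and the depleted vehicle group in the same medium with vehicle. The rich BafA1 group received 100 nM bafilomycin A1 for 48 h in an EMEM-based medium with 1 g/L glucose, 2 mM glutamine and 20% serum, and the rich vehicle group received vehicle in that medium. All cells were wild type per the labels. Bafilomycin A1 inhibits the vacuolar proton pump that acidifies lysosomes. The media differed in serum, glucose, glutamine and base medium together, so the parts of these components in a difference cannot be told apart. The study asked what nutrient depletion and lysosomal alkalinization change in these cells.

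In G1, growth factors and nutrients raise the D-type cyclins, which activate CDK4 and CDK6. These kinases begin to phosphorylate the retinoblastoma protein, E2F factors are released, and E2F targets, among them the E-type cyclins and E2F1 itself, are transcribed. Cyclin E with CDK2 then completes the phosphorylation and starts DNA replication, while CDKN1B (p27) binds and restrains cyclin E-CDK2. In the intestine, Wnt signalling through beta-catenin and growth factor signalling through ERK are known to feed CCND1 transcription.

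The libraries held 12969814 to 51649213 reads assigned to genes. Rich vehicle replicate 1 was the shallowest, and the other 11 libraries held at least 33859998 reads. Rich BafA1 replicate 3 stood apart from its group, with Spearman correlations across genes of 0.985 to each of the other rich BafA1 libraries and 0.985 to 0.990 to the depleted vehicle libraries. Of 14 intestinal epithelium markers, 10 or 11 were above 1 TPM (transcripts scaled by length and library total) in every library. Their summed level was 1549 to 2282 TPM in depleted BafA1, 2880 to 3005 TPM in depleted vehicle, 3308 to 4788 TPM in rich BafA1 and 5163 to 8257 TPM in rich vehicle libraries, while CDX1, KRT20 and GPA33 were at or near 0. Fibroblast, leukocyte and endothelial markers summed to at most 90.1, 19.1 and 6.46 TPM, mostly from PDGFRA and CD14, and THY1, PTPRC and KDR were at or near 0. KRT8 and KRT18 were the most abundant of them and fell with depletion in vehicle (-1.23 and -1.48), as did EPCAM, while CDX2 (0.93) and HNF4A (0.77) rose. Bafilomycin A1 in rich medium also lowered KRT8 and KRT18 (-0.78 and -0.70) and raised CDX2 (1.00) and HNF4A (0.62). The median log2 fold change of the 13 markers tested was -0.06 for depletion in vehicle and 0.06 for bafilomycin A1 in rich medium. Of the 13, 3 were called lower and 2 higher in the first, against 15.4% and 15.5% of all genes. In the second, 2 were called lower and 3 higher, against 4.78% and 6.15%. Bafilomycin A1 in depleted medium had a median of -0.73, with 4 called lower (5.91% of all genes) and none higher (5.50%). The median was -0.82 where the media were compared under bafilomycin A1, with 9 called lower (13.6%) and none higher (10.5%). The interaction had a median of -0.81, with 2 called lower (3.83%) and none higher (2.35%). The part of these marker differences in the results below was not tested. Calls that changed without rich vehicle replicate 1 or rich BafA1 replicate 3, the libraries that stood apart, are given with and without them. In bulk RNA, fewer cells in a phase of the cycle and less RNA per cell cannot be told apart. Whether replicates were separate cultures is not in the labels, and the p-values cover only the spread between these libraries, which may be technical.

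E2F1, CCNE1 and CDK4 promoters are shown because the transcripts of E2F1 and CCNE1 were lower in depleted medium and that of CDK4 was not detectably so. The 250 bases before each gene's start are printed 5′ to 3′ from RefSeq (GRCh38.p14), with E2F motifs in capitals. The regions are chr20:33686386-33686635 on the minus strand for E2F1, chr19:29811741-29811990 on the plus strand for CCNE1 and chr12:57752311-57752560 on the minus strand for CDK4.
E2F1: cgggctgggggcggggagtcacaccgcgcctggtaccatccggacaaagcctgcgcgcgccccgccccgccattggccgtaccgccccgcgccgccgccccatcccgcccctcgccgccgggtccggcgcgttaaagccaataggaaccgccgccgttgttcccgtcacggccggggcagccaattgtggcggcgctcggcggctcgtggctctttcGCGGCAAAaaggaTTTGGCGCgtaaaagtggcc
CCNE1: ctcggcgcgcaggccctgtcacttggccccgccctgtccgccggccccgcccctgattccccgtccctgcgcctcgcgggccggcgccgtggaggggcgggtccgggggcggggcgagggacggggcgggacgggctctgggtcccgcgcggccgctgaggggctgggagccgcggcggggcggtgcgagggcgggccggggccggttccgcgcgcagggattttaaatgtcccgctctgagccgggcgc
CDK4: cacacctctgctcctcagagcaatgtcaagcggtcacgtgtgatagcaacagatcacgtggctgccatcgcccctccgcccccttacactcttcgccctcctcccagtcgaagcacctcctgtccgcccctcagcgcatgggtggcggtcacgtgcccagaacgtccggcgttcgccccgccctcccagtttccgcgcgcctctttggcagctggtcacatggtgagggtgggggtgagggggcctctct
The motif was searched on both strands as TTTCCCGC, TTTCGCGC, TTTGCCGC or TTTGGCGC. It was found in 2 places in the E2F1 promoter, at 33 and 20 bases before the start, once on each strand. Of 35116 RefSeq promoters of the same length, 2.79% held at least 1 match. Promoters were at hand for 6 of the 10 genes (CCND3, CCNE1, CDK4, CDK6, CDKN1B and E2F1), and in the windows of the other 5 of them these letters were not present. The GC box GGGCGG was in all 6, against 42.6% of all promoters. The letters TTTGAA and TGACGTCA were in none of the 6, against 13.3% and 1.65% of all promoters.

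Nutrient depletion in vehicle lowered 8 of the 10 transcripts, all 5 cyclins, E2F1, CDK2 and CDK6, by log2 values between -1.89 and -0.68. CDK4 and CDKN1B were not called. A gene was called at an adjusted p under 0.05 in edgeR's quasi-likelihood test over 18047 genes, and in this comparison 15.4% of all genes tested were called lower and 15.5% higher, 30.9% in either direction. The median log2 fold change of the 10 genes was -1.07, against 0.04 over all genes tested. Depletion under bafilomycin A1 lowered 7 of the 10 (background 13.6%) and raised 1, CDKN1B (background 10.5%, and 24.1% in either direction), with a median of -0.98 against 0.01 over all genes.

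Bafilomycin A1 lowered fewer of them. In rich medium CDK2 and CDK6 were called lower, 2 of 10 against a background of 4.78%, and none higher against 6.15% (10.9% in either direction), at a median of -0.43 against 0.02 over all genes. In depleted medium CCND1 and CDK2 were called lower, 2 of 10 against 5.91%, and none higher against 5.50% (11.4% in either direction), at a median of -0.36 against -0.03. The interaction, which subtracts the rich-medium effect of bafilomycin A1 from its depleted-medium effect, was called for 1 gene, CCND1, in the negative direction (background 3.83%) and for none in the positive direction (2.35%, and 6.18% in either). With both treatments against rich vehicle, 8 genes were lower (background 21.6%) and CDKN1B was higher (21.6%, and 43.2% in either direction). These comparisons share libraries and are not independent of each other.

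Another scale and test were tried together: the deposited TPM values, tested with limma as log2(TPM + 0.1), an alternative added after the data were seen. It moved the median gene by -0.19 for bafilomycin A1 in rich medium, by 0.28 in depleted medium and by 0.47 in the interaction, relative to the TMM-scaled counts. The shifts were -0.27 for depletion in vehicle and 0.20 under bafilomycin A1. Calls lost there, written as lost on the TPM scale, may come from the scale or the test, which was not separated. On that scale 7 of the 10 genes were called lower with depletion in vehicle, and CCND1, CCND2, CCNE1 and CDK2 lower and CDKN1B higher with depletion under bafilomycin A1. CCND1 alone was called lower with bafilomycin A1 in depleted medium, and no gene in rich medium or in the interaction.

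**Figure D1:**
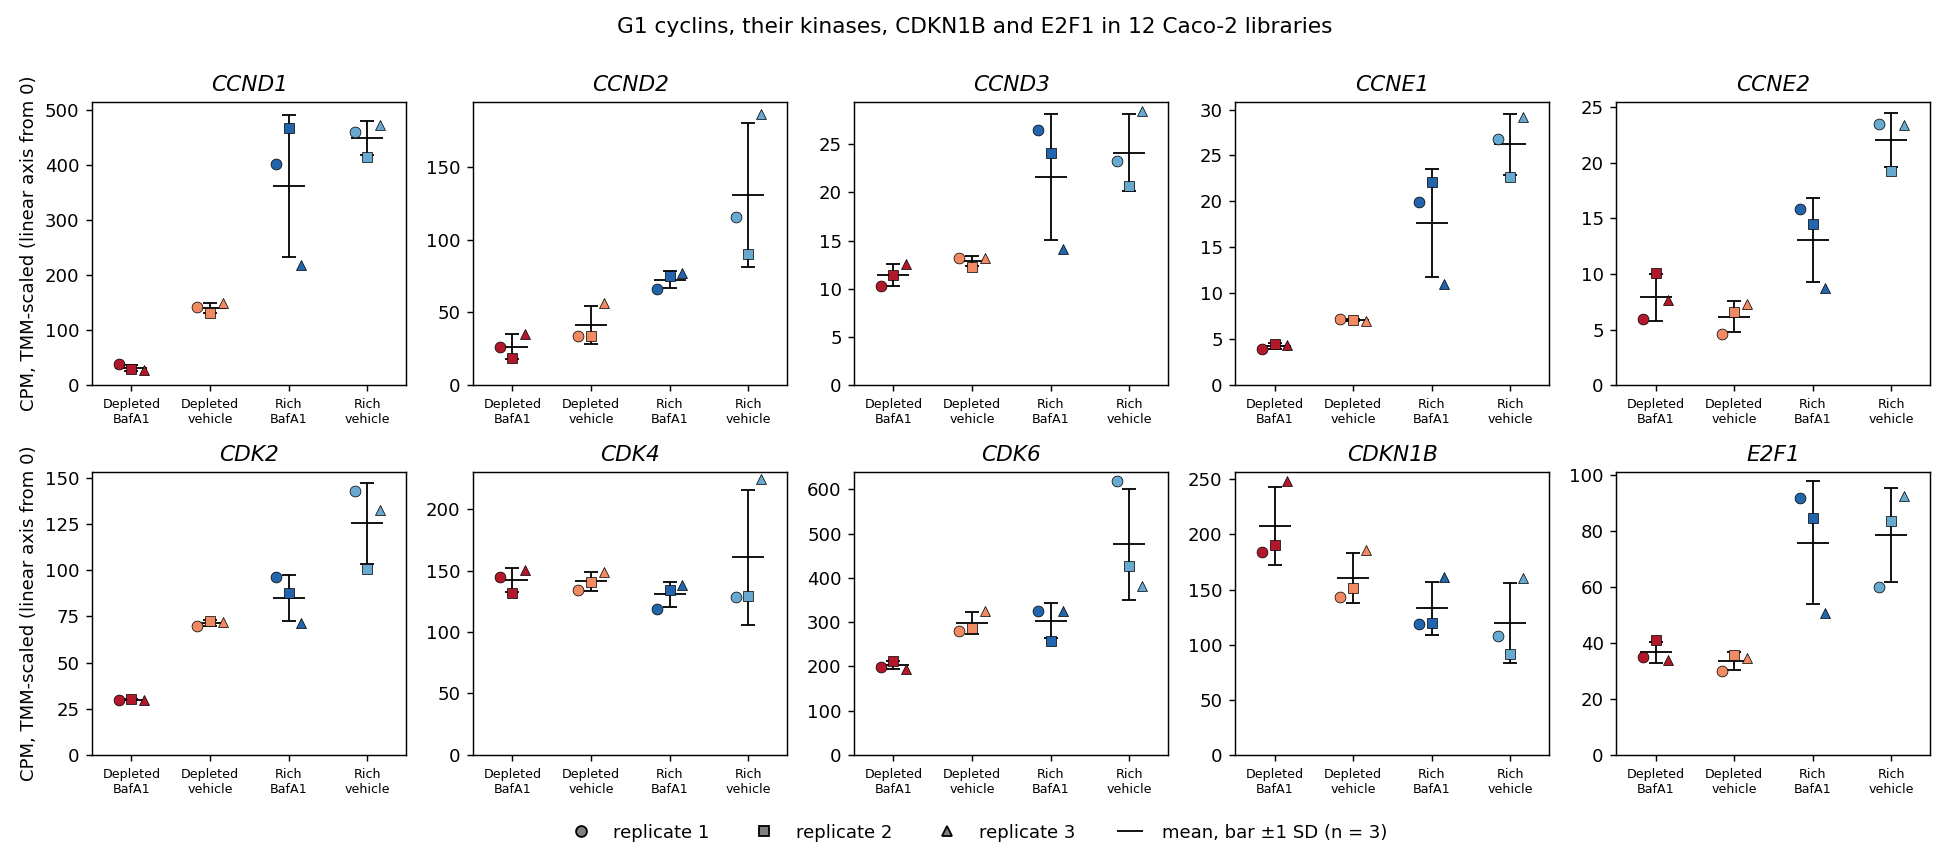
TMM-scaled CPM (read counts relative to library size, linear axes from 0) of the 10 genes in each of the 12 libraries, with the mean and 1 SD of each group (n = 3). CCND1 lies between 27.3 and 38.2 CPM in depleted BafA1 and between 415 and 474 CPM in rich vehicle libraries, while CDK4 overlaps across all 4 groups.

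The D-type cyclins carry growth signals to CDK4 and CDK6. CCND1 (cyclin D1; chromosome 11, 69641156 to 69654474) stood at 38.2, 30.1 and 27.3 CPM in depleted BafA1, 142, 131 and 149 CPM in depleted vehicle, 403, 467 and 218 CPM in rich BafA1, and 461, 415 and 474 CPM in rich vehicle libraries. All 3 depleted BafA1 libraries lay below every other library, all depleted vehicle libraries lay below every rich one, and the 2 rich groups overlapped. Bafilomycin A1 lowered CCND1 by a log2 value of -2.14 (SE 0.24, adjusted p = 0.000126) in depleted medium, a 4.41-fold fall. In rich medium the log2 fold change was -0.31 (95% interval -0.83 to 0.21, adjusted p = 0.408), and it was -0.046 without rich BafA1 replicate 3 and -0.53 without rich BafA1 replicate 2. The difference between those responses was -1.83 (SE 0.32, adjusted p = 0.00647). Leaving out any 1 library kept this call, with differences from -2.10 to -1.61. On the TPM scale the difference was -1.26 and was not called (adjusted p = 0.215), where the median over all genes was 0.38. The depleted-medium response on that scale was -1.86 (adjusted p = 0.00731).

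Depletion lowered CCND1 by -1.68 (SE 0.23, adjusted p = 0.000121) in vehicle and by -3.51 (SE 0.25, adjusted p = 4.7e-06) under bafilomycin A1. With both treatments against rich vehicle it was 14.1-fold lower (log2 fold change -3.82, SE 0.25). CCND1 shares 497 of its 4830 exon bases with LTO1 on the opposite strand, which had 250 to 1472 reads where CCND1 had at least 915. Whether the counting used strand is not stated, which leaves reads in shared exons uncertain. LTO1 was not called lower in any of these comparisons, and it rose by 0.49 (adjusted p = 0.0274) with depletion under bafilomycin A1.

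CCND2 (cyclin D2; chromosome 12, 4273762 to 4305353) stood at 25.9, 18.4 and 35.2 CPM in depleted BafA1, 33.8, 34.0 and 56.3 CPM in depleted vehicle, 65.9, 74.7 and 76.9 CPM in rich BafA1, and 116, 90.2 and 186 CPM in rich vehicle libraries. Every depleted library was below every rich library, while the 2 depleted groups overlapped. Depletion lowered it by -1.66 (SE 0.28, adjusted p = 0.000536) in vehicle and by -1.45 (SE 0.28, adjusted p = 0.00192) under bafilomycin A1. The rich BafA1 libraries lay below all rich vehicle libraries, yet the log2 fold change of -0.85 was not called (SE 0.28, adjusted p = 0.0617). It was called with the DESeq2 test (adjusted p = 0.0227) and without rich vehicle replicate 2 (-1.06, adjusted p = 0.0241) or depleted vehicle replicate 3 (-0.87, adjusted p = 0.0457). In depleted medium bafilomycin A1 gave -0.64 (95% interval -1.28 to -0.0032, adjusted p = 0.154).

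CCND3 (cyclin D3; chromosome 6, 41934933 to 42050035) stood at 10.2, 11.4 and 12.6 CPM in depleted BafA1, 13.2, 12.2 and 13.1 CPM in depleted vehicle, 26.4, 24.1 and 14.1 CPM in rich BafA1, and 23.3, 20.6 and 28.4 CPM in rich vehicle libraries. The low rich BafA1 value is replicate 3, the library that stood apart, and it still lay above every depleted library. Depletion lowered CCND3 by -0.91 in vehicle (SE 0.22, adjusted p = 0.00542) and by -0.92 under bafilomycin A1 (SE 0.22, adjusted p = 0.00673). The call under bafilomycin A1 was lost on the TPM scale (-0.65, adjusted p = 0.203). The bafilomycin A1 response was -0.17 in depleted medium (95% interval -0.67 to 0.33) and -0.16 in rich medium (-0.66 to 0.33), neither called.

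**Figure D2:**
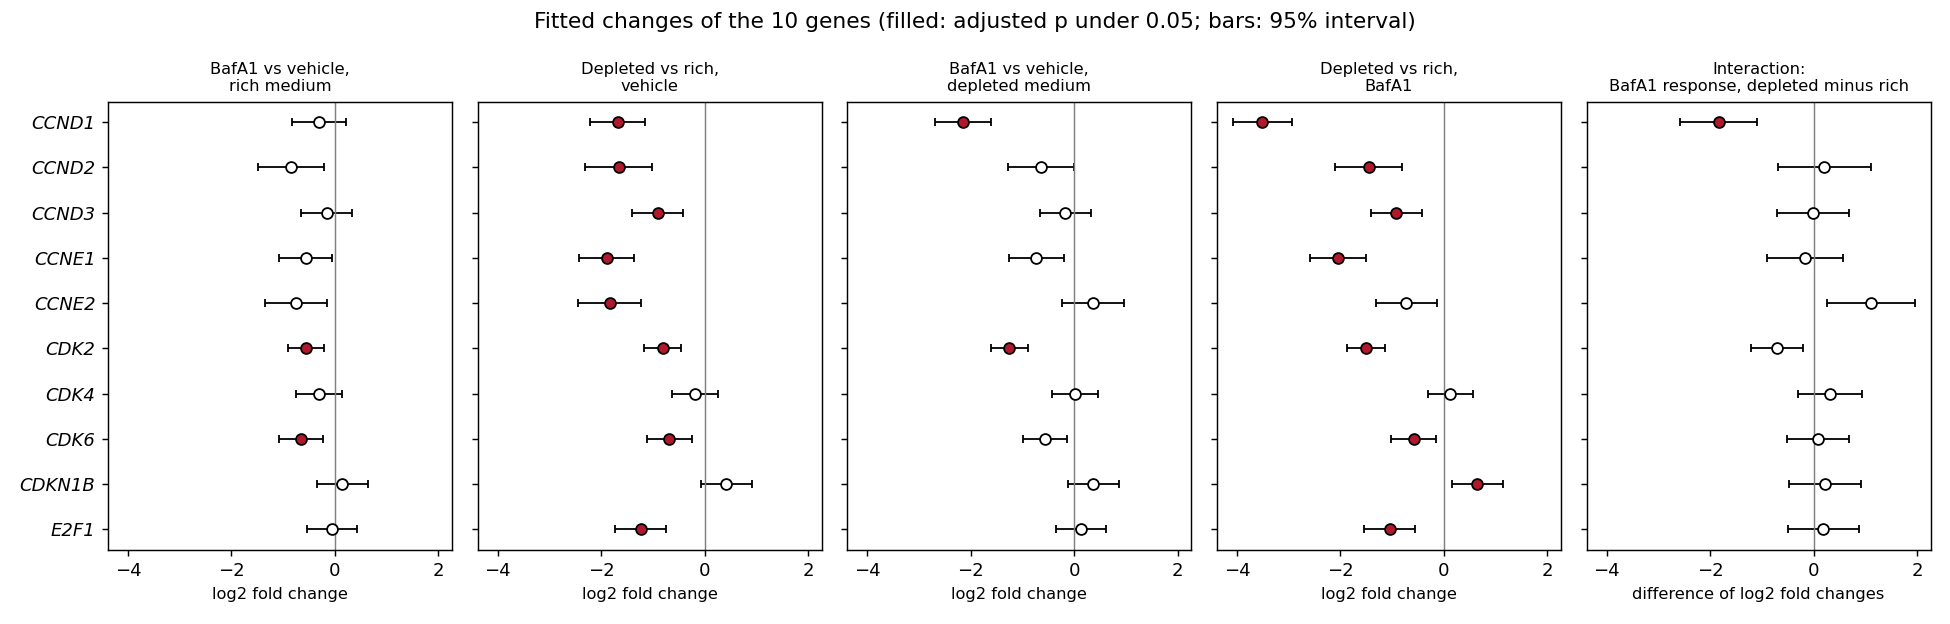
Fitted log2 fold changes of the 10 genes (points) with 95% intervals (bars) in 4 comparisons and in the interaction. Filled points passed an adjusted p under 0.05, and CCND1 at -1.83 is the only filled point of the interaction panel.

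The E-type cyclins activate CDK2 at the entry into S phase. CCNE1 (cyclin E1; chromosome 19, 29811991 to 29824312) stood at 3.90, 4.50 and 4.41 CPM in depleted BafA1, 7.21, 7.06 and 6.95 CPM in depleted vehicle, 20.0, 22.1 and 11.0 CPM in rich BafA1, and 26.8, 22.7 and 29.2 CPM in rich vehicle libraries. No 2 groups overlapped. Depletion lowered it 3.70-fold in vehicle (log2 fold change -1.89, SE 0.23, adjusted p = 5.8e-05) and 4.15-fold under bafilomycin A1 (-2.05, SE 0.23, adjusted p = 4.5e-05). Bafilomycin A1 gave -0.73 in depleted medium (SE 0.23, adjusted p = 0.0525), just short of the call, and -0.57 in rich medium (SE 0.22, adjusted p = 0.116), which was -0.31 without rich BafA1 replicate 3. The first of these passed without rich BafA1 replicate 3 (adjusted p = 0.0127) or any 1 of the rich vehicle libraries (0.0454, 0.0446 and 0.0487 without replicates 1, 2 and 3) and in 6 of the other settings.

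CCNE2 (cyclin E2) stood at 5.92, 10.1 and 7.69 CPM in depleted BafA1, 4.57, 6.62 and 7.33 CPM in depleted vehicle, 15.9, 14.5 and 8.76 CPM in rich BafA1, and 23.5, 19.2 and 23.4 CPM in rich vehicle libraries. The rich vehicle libraries were above all others, and rich BafA1 replicate 3 lay within the depleted BafA1 range. Depletion lowered CCNE2 by -1.84 in vehicle (SE 0.27, adjusted p = 0.00017). Under bafilomycin A1 the log2 fold change was -0.72 (SE 0.26, adjusted p = 0.0539), and it was called without rich BafA1 replicate 3 (-0.94, adjusted p = 0.0138) or depleted BafA1 replicate 2 (-0.94, adjusted p = 0.0409). Bafilomycin A1 gave -0.76 in rich medium (SE 0.26, adjusted p = 0.0734), where the groups did not overlap, and -0.53 without rich BafA1 replicate 3. In depleted medium it gave 0.36 (95% interval -0.24 to 0.96, adjusted p = 0.429).

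The interaction of CCNE2 was 1.11, opposite in sign to that of CCND1, but it was not called (SE 0.37, 95% interval 0.27 to 1.96, adjusted p = 0.0849). The DESeq2 test called it (1.14, adjusted p = 0.0332). CCNE2 shares 1629 of 4397 exon bases with INTS8 on the opposite strand, which had 767 to 1912 reads against 225 to 892 for CCNE2. INTS8 itself changed by -0.67 with depletion in vehicle (adjusted p = 0.00949) and had an interaction of 0.81 (adjusted p = 0.0655), so the CCNE2 values are uncertain for reads in shared exons.

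Of the kinases, CDK2 partners cyclin E. CDK2 (chromosome 12, 55966830 to 55972789) stood at 29.6, 30.3 and 29.9 CPM in depleted BafA1, 69.6, 72.6 and 71.8 CPM in depleted vehicle, 96.3, 87.4 and 71.7 CPM in rich BafA1, and 143, 100.5 and 133 CPM in rich vehicle libraries. The depleted BafA1 libraries lay far below all others and close to each other, while rich BafA1 replicate 3 overlapped the depleted vehicle libraries. Bafilomycin A1 lowered CDK2 by -1.25 in depleted medium (SE 0.16, adjusted p = 0.000286) and by -0.56 in rich medium (SE 0.15, adjusted p = 0.0313). Depletion lowered it by -0.81 in vehicle (SE 0.15, adjusted p = 0.0012) and by -1.51 under bafilomycin A1 (SE 0.16, adjusted p = 2.4e-05). On the TPM scale both bafilomycin A1 calls were lost (adjusted p = 0.0848 in depleted and 0.193 in rich medium).

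The difference between the bafilomycin A1 responses of CDK2 was -0.70 (SE 0.22) and was not called (adjusted p = 0.071). It was called without rich vehicle replicate 1 (-0.80, adjusted p = 0.0422) and without both libraries that stood apart, that one and rich BafA1 replicate 3 (-0.91, adjusted p = 0.0239). The rich-medium call of CDK2 was lost without both (-0.35, adjusted p = 0.205), without rich vehicle replicate 1 or 3 (0.0845 and 0.0621), rich BafA1 replicate 2 or 3 (0.0769 and 0.134), depleted vehicle replicate 1 (0.053) or depleted BafA1 replicate 2 (0.0503). CDK2 shares 89 of 3894 exon bases with PMEL on the opposite strand, which had at most 575 reads where CDK2 had at least 1002. PMEL fell by -1.35 with bafilomycin A1 in depleted medium (adjusted p = 0.0139).

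CDK6 and CDK4 partner the D-type cyclins. CDK6 (chromosome 7, 92604921 to 92836573) stood at 199, 212 and 195 CPM in depleted BafA1, 281, 286 and 325 CPM in depleted vehicle, 326, 258 and 326 CPM in rich BafA1, and 618, 427 and 383 CPM in rich vehicle libraries. The rich vehicle libraries were the highest and the depleted BafA1 libraries the lowest, with the other groups overlapping between them. Depletion lowered CDK6 by -0.68 in vehicle (SE 0.19, adjusted p = 0.0119) and by -0.59 under bafilomycin A1 (SE 0.19, adjusted p = 0.0312), and bafilomycin A1 in rich medium lowered it by -0.65 (SE 0.19, adjusted p = 0.0356). In depleted medium bafilomycin A1 gave -0.56 (SE 0.19, adjusted p = 0.0648), which was called without any 1 of the rich vehicle libraries (0.0188, 0.0472 and 0.0382 without replicates 1, 2 and 3).

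The CDK6 calls rested on single libraries, and on the TPM scale none of the 3 passed (adjusted p = 0.0575 for depletion in vehicle, 0.507 under bafilomycin A1 and 0.216 for bafilomycin A1 in rich medium). Depletion in vehicle was -0.45 without rich vehicle replicate 1 (adjusted p = 0.0476), and the call was lost without depleted vehicle replicate 1 (adjusted p = 0.056). The rich-medium call was lost without both libraries that stood apart (-0.47, adjusted p = 0.136), without rich vehicle replicate 1 (-0.42, adjusted p = 0.123), without any 1 of the rich BafA1 libraries (0.0731, 0.134 and 0.0715 for replicates 1, 2 and 3), without depleted vehicle replicate 1 (0.0559) or without any 1 of the depleted BafA1 libraries (0.0542, 0.053 and 0.0501). The call under bafilomycin A1 was lost without rich BafA1 replicate 1 or 3 (0.113 and 0.0735) or any 1 of the depleted BafA1 libraries (0.0869, 0.0713 and 0.097).

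CDK4 (chromosome 12, 57747727 to 57752310) stood at 145, 132 and 151 CPM in depleted BafA1, 134, 141 and 149 CPM in depleted vehicle, 119, 134 and 138 CPM in rich BafA1, and 129, 129 and 224 CPM in rich vehicle libraries. In CPM all 4 groups overlapped, and 1 library, rich vehicle replicate 3, was far above the others. In TPM the rich vehicle libraries (133, 117 and 110) lay above all rich BafA1 (83.2, 92.3 and 83.3) and depleted vehicle libraries (94.5, 82.1 and 89.3). Rich vehicle replicate 3 was the lowest of its group there, and the depleted BafA1 libraries held 119, 116 and 93.9 TPM. On counts no comparison called CDK4. The depletion difference in vehicle was -0.19 (95% interval -0.63 to 0.25) and the bafilomycin A1 difference in depleted medium 0.01 (-0.43 to 0.45). The bafilomycin A1 difference in rich medium was -0.30 (-0.74 to 0.14) and the depletion difference under bafilomycin A1 0.13 (-0.31 to 0.57). Without rich vehicle replicate 3 the depletion difference was 0.13. The exons of CDK4 share 1369 of 3168 bases with TSPAN31 on the opposite strand, which had 255 to 1386 reads. TSPAN31 changed by 0.56 with depletion in vehicle (adjusted p = 0.0213) and by -0.73 with bafilomycin A1 in depleted medium (adjusted p = 0.0125).

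CDKN1B (p27; chromosome 12, 12717368 to 12722369), the inhibitor in the list, ran the other way. It stood at 184, 190.4 and 249 CPM in depleted BafA1, 144, 152 and 186 CPM in depleted vehicle, 119, 119 and 161 CPM in rich BafA1, and 108, 91.4 and 161 CPM in rich vehicle libraries. Every depleted BafA1 library was above every rich library, while the 2 vehicle groups overlapped. Depletion under bafilomycin A1 raised it by 0.64 (SE 0.21, adjusted p = 0.0383), and both treatments together raised it by 0.79 against rich vehicle (SE 0.21, adjusted p = 0.00753). In vehicle, depletion gave 0.42 (95% interval -0.07 to 0.91, adjusted p = 0.148), and bafilomycin A1 gave 0.37 in depleted medium (-0.12 to 0.86) and 0.15 in rich medium (-0.34 to 0.64), none called.

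Without rich vehicle replicate 3, depletion in vehicle was called for CDKN1B (0.69, adjusted p = 0.0183). The call under bafilomycin A1 was lost without rich BafA1 replicate 1 or 2 (adjusted p = 0.147 and 0.151), depleted vehicle replicate 1 (0.0509) or any 1 of the depleted BafA1 libraries (0.0516, 0.0641 and 0.164 for replicates 1, 2 and 3).

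E2F1 (chromosome 20, 33675477 to 33686385), which activates the genes of DNA replication, stood at 35.0, 40.9 and 34.0 CPM in depleted BafA1, 29.8, 35.7 and 34.7 CPM in depleted vehicle, 91.8, 84.7 and 50.7 CPM in rich BafA1, and 59.8, 83.5 and 92.4 CPM in rich vehicle libraries. Every depleted library was below every rich one, and the BafA1 and vehicle groups overlapped in each medium. Depletion lowered E2F1 by -1.24 in vehicle (SE 0.21, adjusted p = 0.000592) and by -1.05 under bafilomycin A1 (SE 0.21, adjusted p = 0.00251). The call under bafilomycin A1 was lost on the TPM scale (-0.76, adjusted p = 0.135). The bafilomycin A1 difference was 0.13 in depleted medium (95% interval -0.35 to 0.62) and -0.06 in rich medium (-0.54 to 0.43), so neither sign was resolved.

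With both treatments against rich vehicle, the log2 fold change was -2.62 for CCNE1, -2.30 for CCND2, -2.07 for CDK2, -1.48 for CCNE2, -1.24 for CDK6, -1.10 for E2F1 and -1.08 for CCND3, each called. CDK4 stood at -0.18 in that comparison and was not called. Interactions of CCND2, CCND3, CCNE1, CDK4, CDK6, CDKN1B and E2F1 lay between -0.16 and 0.32, and none was called.

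The group means ran from depleted BafA1 through depleted vehicle and rich BafA1 to rich vehicle, low to high, for CCND1, CCND2, CCND3, CCNE1, CDK2 and CDK6. CDKN1B had the reverse order. For CCNE2 and E2F1 the 2 depleted groups changed places, and CDK4 followed neither order. Of neighbours in these orders, the depleted groups differed at an adjusted p under 0.05 for CCND1 and CDK2 and for no other gene. The rich groups differed for CDK2 and CDK6 and for no other gene. The middle step between depleted vehicle and rich BafA1, which changes medium and drug together, was called for CCND1 and CCNE1. It was not called for CCND2, CCND3, CDK2, CDK6 and CDKN1B. For E2F1 and CCNE2 the middle step lay between the BafA1 groups, and it was called for E2F1 only. With the drug state held the same, depletion was called both in vehicle and under bafilomycin A1 for CCND2, CCND3, CDK2 and CDK6. For CCNE2 it was called in vehicle only, and for CDKN1B under bafilomycin A1 only. No neighbouring groups differed for CDK4.

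Set against each other, rich BafA1 was higher than depleted vehicle for CCND1 by 1.37 (adjusted p = 0.00421), CCNE1 by 1.32 (adjusted p = 0.00488), CCNE2 by 1.08 (adjusted p = 0.0332) and E2F1 by 1.18 (adjusted p = 0.0066), 4 of 10 genes against a background of 3.14%, and none was lower (0.875%, and 4.01% in either direction). On the TPM scale the differences were 1.37, 1.33, 1.05 and 1.205 for these 4 genes, about as large, but none was called (adjusted p = 0.0647, 0.0649, 0.195 and 0.0724). In that comparison CDK2, CDK4, CDK6 and CDKN1B had log2 fold changes between -0.27 and 0.25, and CCND2 (0.81) and CCND3 (0.75) were not called. The CCND3 value was called at 0.98 (adjusted p = 0.00383) without rich BafA1 replicate 3 and at 0.75 (adjusted p = 0.0499) without rich vehicle replicate 3. The call of CCNE2 was lost without rich BafA1 replicate 1 or 2 (adjusted p = 0.196 and 0.184) or any 1 of the depleted vehicle libraries (0.174, 0.0913 and 0.0564 for replicates 1, 2 and 3). That of E2F1 was lost without rich BafA1 replicate 1 (0.052) or depleted vehicle replicate 1 (0.0628).

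The make-up of each class was taken from TPM values, which divide by transcript length and so allow genes to be compared within a library. CCND1 made up 49.2%, 44.0% and 34.9% of the summed D-type cyclin TPM in depleted BafA1, 72.9%, 71.6% and 69.0% in depleted vehicle, 79.5%, 82.4% and 72.4% in rich BafA1, and 78.5%, 79.8% and 71.7% in rich vehicle libraries. Its share was thus lower in all 3 depleted BafA1 libraries than in any other library. CCND3 held 34.3% ± 4.70 in depleted BafA1 and 15.3% ± 1.26 in depleted vehicle libraries (SD, n = 3 each), and CCND2 23.1% ± 6.26 and 13.5% ± 3.13 in the same groups. The summed D-type TPM was 23.3 ± 3.61 in depleted BafA1 and 50.4 ± 6.67 in depleted vehicle libraries.

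CCNE1 held 43.0% ± 4.63 of the E-type TPM in depleted BafA1, 61.1% ± 6.67 in depleted vehicle, 65.6% ± 1.83 in rich BafA1 and 63.6% ± 1.53 in rich vehicle libraries (SD, n = 3 each). More of the E-type TPM was thus assigned to CCNE2 than to CCNE1 in the depleted BafA1 group. CDK4 held 83.0% ± 1.62 of the summed CDK4 and CDK6 TPM in depleted BafA1, 76.6% ± 0.970 in depleted vehicle, 74.7% ± 2.90 in rich BafA1 and 69.6% ± 9.44 in rich vehicle libraries. INTS8 overlaps 1629 of 4397 CCNE2 exon bases, and TSPAN31 overlaps 1369 of 3168 CDK4 exon bases. Whether the counting used strand is not stated, so the E-type and CDK4 shares are uncertain for reads in shared exons. Between depleted BafA1 and depleted vehicle libraries the groups did not overlap for any of these shares. The exact two-sided permutation test of 3 against 3 cannot go below p = 0.1, which 11 of 20 such tests reached (smallest adjusted p = 0.182), so none passed.

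**Figure D3:**
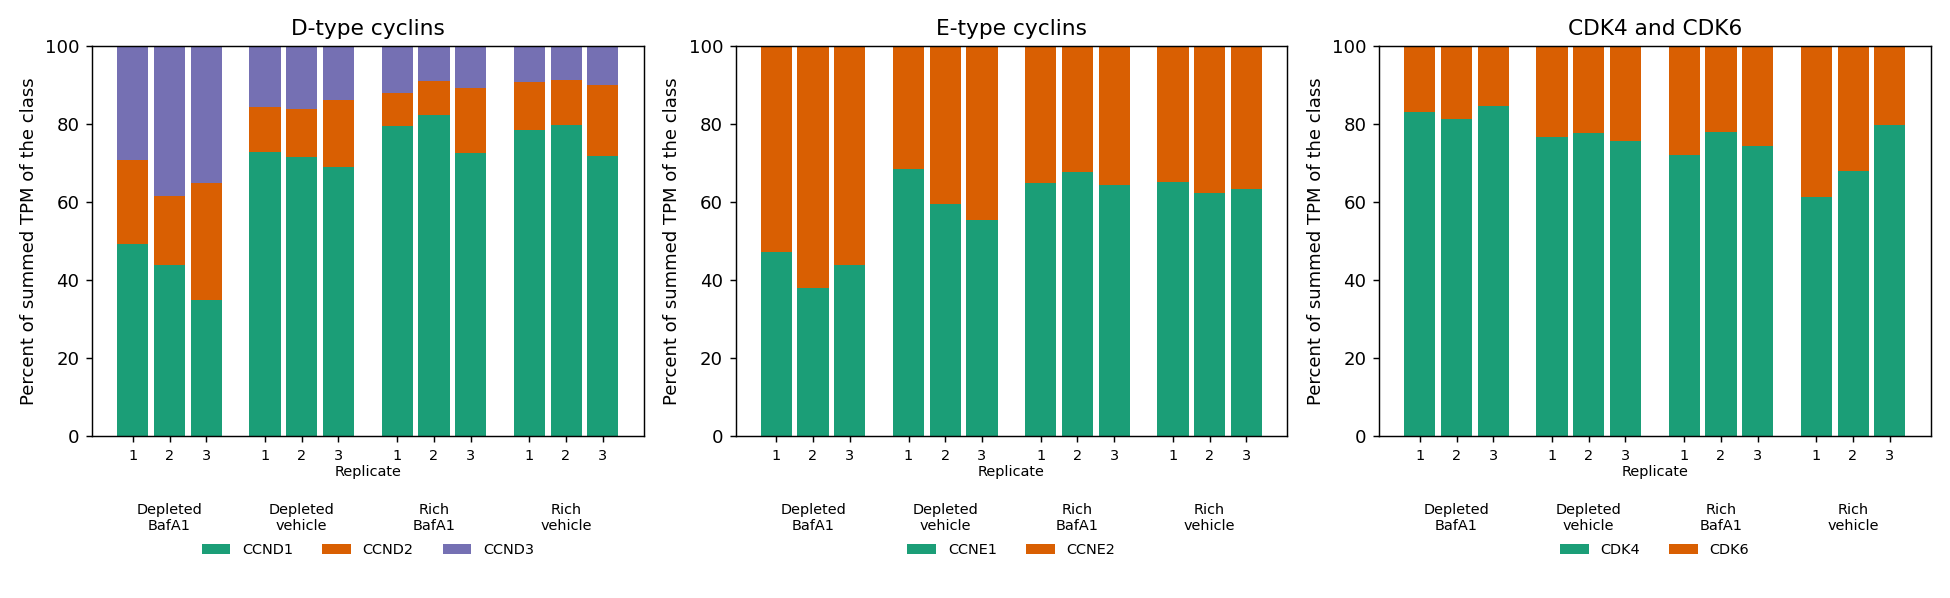
Percent of the summed TPM of each class held by each gene, for the D-type cyclins, the E-type cyclins and the CDK4 and CDK6 pair, one bar per library. CCND1 holds 34.9% to 49.2% of D-type TPM in depleted BafA1 libraries and at least 69.0% in the other 9.

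With depletion in vehicle, 15.4% of all genes fell and 15.5% rose. Of the 26 E2F targets of the G1/S step, mostly genes of DNA replication and nucleotide supply, 24 fell there and none rose. Their median log2 fold change was -1.37. Among them GINS1, of the replicative helicase, fell to 46.5 ± 1.88 CPM in depleted vehicle, against 143 ± 28.01 CPM in rich vehicle libraries (SD, n = 3; log2 fold change -1.62, adjusted p = 3.4e-05), and MCM3, of the same helicase, by -1.52. Under bafilomycin A1, 20 of 26 fell with depletion, against 13.6% of all genes, and none rose, against 10.5% (median -1.15). Among those that fell were RRM2, a subunit of ribonucleotide reductase (-3.06), TK1, thymidine kinase (-2.14), and GINS2 (-1.95). Bafilomycin A1 in depleted medium lowered 6 of 26, against 5.91% of all genes, and raised none, against 5.50% (median -0.35). RRM2 stood at -1.21 and GINS2 at -1.05 there. Without both libraries that stood apart, bafilomycin A1 in depleted medium lowered 12 and raised 2. Without rich BafA1 replicate 3 or rich vehicle replicate 1 it also raised 2 or 1. In TPM, 24 fell with depletion in vehicle, 11 under bafilomycin A1, and none with bafilomycin A1 in either medium.

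In rich medium bafilomycin A1 lowered 10 of the 26 E2F targets (median -0.57) and raised 1, against 4.78% and 6.15% of all genes. The number lowered fell to 2 without rich BafA1 replicate 3, to 5 without rich BafA1 replicate 1 or rich vehicle replicate 1 or 3, and to 6 without depleted vehicle replicate 1, and none was called with only the 6 libraries compared. The 1 call higher was lost without any 1 library other than rich vehicle replicates 2 and 3. E2F1 itself was not called in either bafilomycin A1 comparison.

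Of 9 other E2F and DP genes, 5 fell and 1 rose with depletion in vehicle, where 15.4% of all genes fell and 15.5% rose. E2F8, a repressor of the E2F family, fell to 14.1 ± 1.95 CPM in depleted vehicle, against 53.2 ± 6.79 CPM in rich vehicle libraries (SD, n = 3; log2 fold change -1.92). The activator E2F2 fell by -1.91 and the repressor E2F7 by -1.54. TFDP2, a DP partner of E2F proteins, rose by 1.31 to 71.7 ± 10.6 CPM, against 28.95 ± 2.65 CPM in rich vehicle libraries. Its interaction was -1.34 (SE 0.23, adjusted p = 0.00591). In TPM the level of TFDP2 was 8.75 ± 1.497 in depleted vehicle and 7.47 ± 3.91 in rich vehicle libraries (SD, n = 3 each), and neither TFDP2 call held on that scale (adjusted p = 0.519 and 0.815). Under bafilomycin A1 depletion again lowered 5, against 13.6% of all genes, and raised none, against 10.5%. E2F2 stood at -2.14, E2F8 at -1.92 and TFDP1, the main DP partner, at -1.25.

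Of 12 other cyclins and kinases, 5 fell and 1 rose with depletion in vehicle, against 15.4% and 15.5% of all genes. CDK1, the mitotic kinase, fell by -1.66, and its partners CCNA2 and CCNB1 by -1.49 and -1.24. CCNG2, a cyclin that is not a CDK activator and is known as a target of FOXO factors, rose to 60.8 ± 6.72 CPM in depleted vehicle, against 22.7 ± 5.71 CPM in rich vehicle libraries (SD, n = 3; log2 fold change 1.43, adjusted p = 5.3e-05). Bafilomycin A1 in rich medium also raised CCNG2, by 1.36, with an interaction of -1.19. There it lowered 5 of 12, against 4.78% of all genes, among them CCNB1 by -1.03 and CCNA2 by -0.90. Without rich BafA1 replicate 3 it lowered 3. On the TPM scale CCNB1 alone of these passed (CCNG2 1.17, adjusted p = 0.0655; CCNA2 -1.09, adjusted p = 0.0621), and the CCNG2 interaction was not called (adjusted p = 0.375).

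Among the ubiquitin ligase genes of the G1 proteins, SKP2, which targets p27 for degradation, stood at 87.8 ± 11.1 CPM in depleted BafA1, 214 ± 13.0 CPM in depleted vehicle, 165 ± 17.1 CPM in rich BafA1 and 321 ± 57.4 CPM in rich vehicle libraries (SD, n = 3 each). Bafilomycin A1 lowered it by -1.29 in depleted medium (adjusted p = 0.000348) and by -0.96 in rich medium (adjusted p = 0.00279). The depleted-medium call was lost on the TPM scale (-0.99, adjusted p = 0.0693). FBXO31 and FBXO4, F-box proteins described as recognising cyclin D1, were higher with depletion in vehicle by 0.39 (adjusted p = 0.0434) and 1.17 (adjusted p = 0.000831). Of the 11 ubiquitin ligase genes listed, 2 rose and 5 fell with depletion in vehicle, against 15.5% and 15.4% of all genes. SKP2 was among those that fell, at -0.59 (adjusted p = 0.0139). Depletion under bafilomycin A1 lowered SKP2 by -0.91 (adjusted p = 0.00125). With 1 library left out, 1 to 3 of the list rose and 2 to 5 fell with depletion in vehicle. With depletion under bafilomycin A1 FBXO31 and FBXO4 were higher by 0.84 and 1.28. Of the 11 genes of that list, 2 rose and 4 fell in that comparison, against 10.5% and 13.6% of all genes, and the number that fell was 2 without rich BafA1 replicate 1 or 2, depleted vehicle replicate 2 or 3 or any 1 of the depleted BafA1 libraries, and 1 on the TPM scale.

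Of 6 other CDK inhibitors, bafilomycin A1 raised 2 and lowered none in each medium. The shares of all genes raised and lowered were 6.15% and 4.78% in rich medium, and 5.50% and 5.91% in depleted medium. With 1 library left out, the number raised was 1 to 2 in rich and 0 to 2 in depleted medium. CDKN2B rose by 0.71 in rich (adjusted p = 0.0392) and by 0.68 in depleted medium (adjusted p = 0.0432). CDKN1A (p21) rose with bafilomycin A1 in rich medium to 14.3 ± 3.56 CPM, against 4.65 ± 0.783 CPM in rich vehicle libraries (SD, n = 3; log2 fold change 1.62, adjusted p = 0.0025). In depleted medium bafilomycin A1 raised it by 0.97 (adjusted p = 0.0307), a call lost without any 1 of the depleted vehicle libraries, without depleted BafA1 replicate 2 or 3 and on the TPM scale. Depletion under bafilomycin A1 lowered CDKN1A by -0.99 (adjusted p = 0.0134), a call lost without rich BafA1 replicate 2 or depleted BafA1 replicate 1 and on the TPM scale. CDKN1C (p57) rose by 1.68 and CDKN2A fell by -1.13 with depletion in vehicle, 1 higher and 1 lower of 6, near the 15.5% and 15.4% of all genes. The interaction of CDKN1C was called at -1.90 (adjusted p = 0.0382), 1 of the 6 against 3.83% of all genes. None was called in the positive direction, against 2.35%. With 1 library left out, the number called in the negative direction was 0 to 1. Of 4 activators of the kinases, 2 fell and 1 rose with depletion in vehicle, against 15.4% and 15.5% of all genes. The number that fell was 1 without rich vehicle replicate 1 or depleted vehicle replicate 1 or 3, and 3 without rich vehicle replicate 2. CDC25A, the phosphatase that activates CDK2, fell there by -1.95 and CDK7, the CDK-activating kinase, rose by 1.21 in that comparison. Of 8 pocket protein and DREAM complex genes, 3 fell and 1 rose in that comparison, against 15.4% and 15.5% of all genes. None fell without rich vehicle replicate 1, where 2 rose, 1 fell without any 1 of the depleted vehicle libraries, and none rose without depleted vehicle replicate 3. None of them fell on the TPM scale. The retinoblastoma gene RB1 stood at 83.0 ± 7.47 CPM in depleted BafA1, 60.6 ± 4.33 CPM in depleted vehicle, 52.2 ± 3.77 CPM in rich BafA1 and 50.8 ± 16.2 CPM in rich vehicle libraries.

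Of 11 transcription factors that act on CCND1 or CDKN1B, 6 fell and 1 rose with depletion in vehicle, against 15.4% and 15.5% of all genes. The number that rose was 2 without rich vehicle replicate 3, and none rose on the TPM scale. ETV5 and ETV4, transcription factors induced by ERK signalling, fell by -2.86 and -2.24, the AP-1 subunit FOSL1 by -2.20, and LEF1, a Wnt effector, by -2.03. Under bafilomycin A1 depletion lowered ETV4 by -3.06 and ETV5 by -2.36 and raised FOXO3, an activator of CDKN1B transcription, by 0.78, a call lost on the TPM scale (adjusted p = 0.0641). FOXO3 was also called higher where CDKN1B was not. It rose by 0.76 with depletion in vehicle, and with bafilomycin A1 by 0.54 in rich and 0.56 in depleted medium. With 1 library left out, the list's number higher fell as low as 0 in both bafilomycin A1 comparisons. LEF1 stood at -0.28 with depletion under bafilomycin A1 (adjusted p = 0.513). Its bafilomycin A1 response was -1.37 in rich medium (adjusted p = 0.00745) and 0.38 in depleted medium (adjusted p = 0.454). The LEF1 interaction was called at 1.75 (adjusted p = 0.0223), opposite in sign to that of CCND1. That call was lost without rich BafA1 replicate 1, depleted vehicle replicate 1 or 2 or depleted BafA1 replicate 3 and on the TPM scale.

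**Figure D4:**
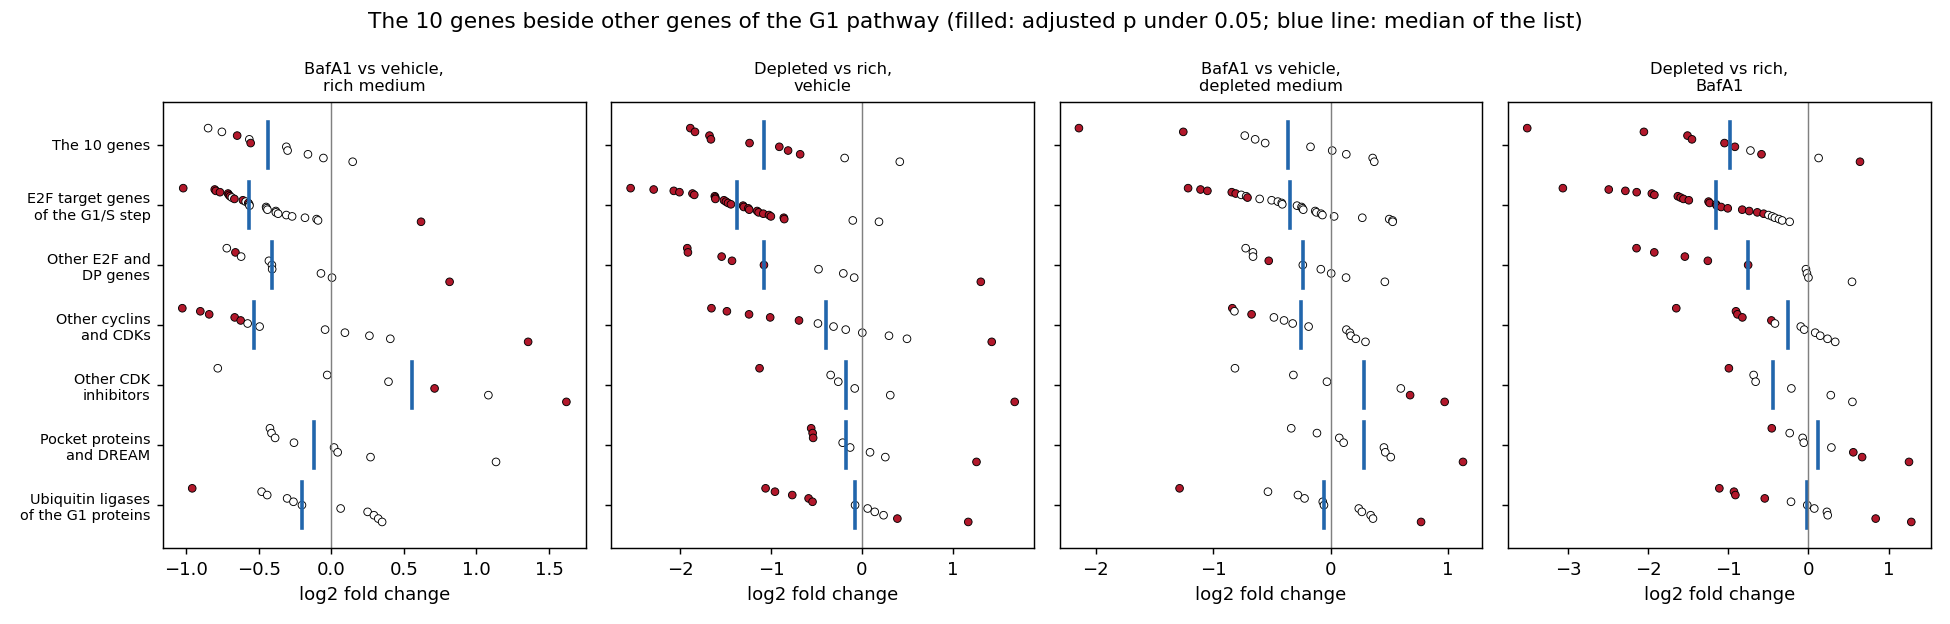
Log2 fold changes of the 10 genes and of 6 lists of other G1 pathway genes in 4 comparisons; each point is a gene, filled where the adjusted p was under 0.05, and the blue line is the list's median. With depletion in vehicle the median is -1.07 for the 10 genes and -1.37 for the E2F targets.

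Over the 12 libraries the log2 CPM of the genes ran together to different degrees, which is a description, since the libraries share groups and scaling. Pearson's r with CCND1 was 0.97 for CDK2, 0.95 for CCNE1, 0.78 for E2F1, 0.03 for CDK4 and -0.81 for CDKN1B. Of the 11061 genes that averaged 5 CPM or more, those outside the list with the pattern most like CCND1 were WWC1 (r = 0.99), MARCKSL1 (0.98) and RMI2 (0.98). Those most like E2F1 were SFN (0.98), MICB (0.97) and TRAF2 (0.97), and those most like CDKN1B were HSCB (0.97), ISCU (0.96) and GPALPP1 (0.96).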

How the data were processed

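RNA sequencing of 12 Caco-2 libraries was analysed. Per the file headers, every library has a deposited table with 1 estimated count and 1 TPM value for each of 54553 genes, and a deposited series-wide table gives whole-number counts for 13518 genes. All 10 genes were in it and all 10 passed the filter. DRAGEN and GRCh38 are named in the submitters' processing notes, while no source used here gives the versions, the annotation release or the strand setting. Estimated counts were rounded and filtered with filterByExpr (minimum count 10, minimum total 15), which left 18047 genes. They were scaled by TMM and tested with edgeR 4.0.16 (R 4.3.3), robust quasi-likelihood, in 1 fit of 12 libraries with 4 group means and 8 residual degrees of freedom. P-values were adjusted by Benjamini-Hochberg over all genes tested, and a gene was called at an adjusted p under 0.05, whatever its fold. Standard errors were the fold change (log2) over the root of F, and 95% intervals used t quantiles with 8 degrees of freedom. Precision is set by 3 libraries a group and by 12969814 to 51649213 assigned reads a library.

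The genes, the lists and the tests were chosen with earlier results of these data known. All 10 genes were described, whatever their values. From each list at most the 4 called genes with the smallest adjusted p of a comparison could be named, and only some of these were. LTO1, INTS8, PMEL and TSPAN31 were named because their exons overlap. The genes most alike were the 3 with the highest Pearson r. Symbols were matched to RefSeq (GRCh38.p14), and overlapping exons were read from GENCODE. On simulated counts of 17624 genes the fit recovered 59% of 2-fold and 93% of 4-fold changes for bafilomycin A1 in rich medium, and for the interaction, on 17617 genes, 17% and 81%. Of the simulated calls, 7.88% and 4.85% were false in these comparisons. The simulation changed 100 genes by each fold, fewer than the 1971 and 1116 genes called in the data. Its rates therefore need not hold for the data. Same-numbered replicates were checked for pairing (see the last part). Alternatives were DESeq2 1.42.0 (size factors and test), unfiltered counts, separate fits of each comparison's 6 libraries, a block for the replicate number, the series-wide table, and leaving out each library, or both libraries that stood apart. After the data were seen, limma 3.58.1 on log2(TPM + 0.1) was added.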

Additional observations from a re-analysis of the deposited data

Results flagged for a closer look

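The interaction was called for 6.18% of all genes tested, 3.83% in the negative and 2.35% in the positive direction. CCND1 was the 1 gene of the 10 for which the response to bafilomycin A1 differed between the media by a test of the difference itself. Its interaction was -1.83 on the log2 scale (SE 0.32, adjusted p = 0.00647), from a bafilomycin A1 response of -2.14 in depleted medium and -0.31 in rich medium. The depleted BafA1 libraries held 38.2, 30.1 and 27.3 CPM, and the depleted vehicle libraries 142, 131 and 149 CPM. The rich BafA1 libraries held 403, 467 and 218 CPM, and the rich vehicle libraries 461, 415 and 474 CPM, so 1 rich BafA1 library fell below the others of its medium. With limma on the deposited TPM, which changed the scale and the test together, the same difference was -1.26 and did not pass (adjusted p = 0.215).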

How the results depend on the processing

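CCND1 kept its direction in every alternative run. Its calls were kept too, except with limma on the deposited TPM, where the interaction (-1.26) and rich BafA1 against depleted vehicle (1.37) were lost. In that alternative, which changed the scale and the test together and was added after the data were seen, the genes called were 0 of the 10 and 277 of all for bafilomycin A1 in rich medium, 1 and 475 in depleted medium, 7 and 3386 for depletion in vehicle, 5 and 1541 for depletion under bafilomycin A1, and 0 and 6 for the interaction. The interaction had 1116 calls on counts. Of the 10 genes, 2 were called for bafilomycin A1 in rich medium. That count was 4 with the DESeq2 test and with no low-count filter, 0 with only the 6 libraries compared and without both libraries that stood apart, and 0 to 3 when 1 library was left out. For bafilomycin A1 in depleted medium the 2 called became 4 with the DESeq2 test, no filter, only the 6 libraries or without both libraries, 5 with the replicate block, and 2 to 4 with 1 library left out. For the interaction 1 became 2 with the DESeq2 test, no filter, the replicate block, the series-wide table or without both libraries, and 1 to 2 with 1 library left out. Over all genes, 1971 calls for bafilomycin A1 in rich medium became 2971 (DESeq2 test), 496 (only the 6 libraries), 1010 (without both) and 1012 to 2656 (1 library left out). The 2058 in depleted medium became 4259 (only the 6 libraries), 3444 (without both) and 878 to 3074 (1 left out). The 4352 for depletion under bafilomycin A1 ranged from 2346 to 5499 with 1 left out. The interaction's 1116 became 2070 (DESeq2 test), 1792 (no filter), 1969 (replicate block) and 393 to 1844 (1 left out).

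Of the 10 genes, none that reversed was called under either setting, and the cause was not tested. On the TPM scale CDKN1B was -0.0442 and TFDP2, called at 0.81 on counts, -0.0217 for bafilomycin A1 in rich medium, CCND3 was 0.0465 for bafilomycin A1 in depleted medium, and the interaction was 0.50 for CCND3 and 0.41 for CCNE1. Without both libraries the bafilomycin A1 difference in rich medium was 0.0414 for CCND3, -0.0872 for CDKN1B and 0.00375 for E2F1, the CDK6 interaction was -0.0853 and CDK6 in rich BafA1 against depleted vehicle -0.0244. The CCND3 interaction was 0.0179 with DESeq2 size factors and 0.0178 with the DESeq2 test. With 1 library left out, the bafilomycin A1 difference in rich medium ranged from -0.33 to 0.0695 (CCND3), -0.44 to 0.0221 (CDK4), -0.0151 to 0.42 (CDKN1B) and -0.22 to 0.17 (E2F1). The interaction ranged from -0.14 to 0.53 (CCND2), -0.24 to 0.16 (CCND3), -0.41 to 0.0242 (CCNE1), -0.00865 to 0.45 (CDK4), -0.14 to 0.22 (CDK6), -0.0524 to 0.39 (CDKN1B) and -0.0333 to 0.35 (E2F1). CDK4 ranged from -0.33 to 0.13 for depletion in vehicle, -0.0271 to 0.0707 for bafilomycin A1 in depleted medium and -0.31 to 0.15 for both treatments against rich vehicle, and CDK6 from -0.0251 to 0.13 for rich BafA1 against depleted vehicle.

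Same-numbered replicates were not taken as paired, because not every pair of libraries correlated above 0.1: over 18 pairs of libraries their deviations correlated at -0.08 to 0.29 (median 0.07), with 6 above 0.1, the replicates 2 and 3 of rich vehicle, depleted vehicle and depleted BafA1, and 9 of 12 libraries correlated best with their own number, a hint from the data and not from the design. Pairing is not excluded by this rule. Replicate 3 had the highest CPM of every group for CCND2, CDK4 and CDKN1B. With the replicate block CDKN1B was called with depletion in vehicle (0.45, adjusted p = 0.014). Where a group has 3 libraries and the response is small, as for CDK4, differences within the intervals given were not detectable.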
